A study of Mus musculus with 24 samples.

Results

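Reticulocytes of mutant mice were compared on 5 arrays at 24 h of culture and 5 arrays at 0 h, chosen by the genotype and time in their labels, which is 10 of the 24 arrays of the study. All animals were adult male C57BL/6J mice, wild type or mutant, and the labels do not name the mutated gene, so its level could not be used to check them. Blood rich in reticulocytes was kept outside the animal, with RNA sampled at 0, 12 and 24 h, from 3 wild-type and 5 mutant samples at each time. The replicates are described as biological. Each sample was hybridised to an Illumina bead array, on which a gene's level is the brightness of a probe, here as a log2 value after background correction and quantile normalization, which gives all arrays the same distribution of values. Of 16593 gene names, 4846 had a probe that passed the filter on detection, and all of these were tested.

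A reticulocyte is a red cell that has expelled its nucleus and can therefore make no new messenger RNA. Over its last days it finishes making hemoglobin, remodels its membrane, and removes mitochondria, ribosomes and other organelles by autophagy, by the ubiquitin and proteasome system and by release of vesicles. Its transcripts are lost at different rates during this time. A measurement scaled to the total signal of an array therefore shows which transcripts took up more or less of the remaining pool, and a gene can gain in this measure while it loses molecules. In such bulk samples, fewer cells of a type and less RNA per cell cannot be told apart.

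The 0 h arrays were less alike than the 24 h arrays. The share of probes detected (detection p below 0.01) was 3.60, 6.34, 10.5, 12.0 and 17.04% on 0 h arrays 1 to 5, and 10.2, 12.6, 15.7, 18.3 and 15.6% on the 24 h arrays. The means were 9.89% ± 5.20 and 14.5% ± 3.13 (SD, n = 5 each), a difference of 4.57 percentage points that did not pass an exact two-sided permutation test (p = 0.151, the smallest possible being 0.00794). It was 6.36 points without 0 h array 5 (exact p = 0.0397), 3.00 without 0 h array 1 (exact p = 0.278) and 1.29 without 0 h arrays 1 and 2 (exact p = 0.643). Mutant 0 h arrays 1 and 2 stood apart from the other 0 h arrays, with correlations of log2 values of 0.78 to 0.88 against 0.97 among arrays 3 to 5. Their median raw intensities were 278 and 235, against 139 to 169 on 0 h arrays 3 to 5 and 40.3 to 41.2 on the 24 h arrays. Time and the background of the arrays cannot be told apart in these samples. The lowest level counted as detected was 5.25 to 5.67 (log2) on 0 h arrays 3 to 5 and 5.20 to 5.70 at 24 h. It was 6.97 and 6.23 on 0 h arrays 1 and 2. After quantile normalization this level follows the number of probes detected, so it cannot show whether the backgrounds were alike. As markers of the labelled cell type, the globin chain Hba-a1, the heme enzyme Alas2, the band 3 protein Slc4a1 and the transferrin receptor Tfrc were detected on all 10 arrays, and the ankyrin Ank1 was detected at 24 h only. Hbb-b1 had no probe here, and Epb4.2 had none that passed the filter.

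Of the 4846 genes, 2061 (42.5%) changed between 0 and 24 h at an adjusted p below 0.05 in limma, a linear model fitted across all genes. Of these, 1366 rose (28.2%) and 695 fell (14.3%). The groups did not overlap, with every 24 h array above every 0 h array, for 1108 genes (22.9%), and with every 24 h array below for 458 (9.45%). The median change of all genes was 0.10 on the log2 scale, the median of the genes that rose was 0.80 and that of the genes that fell was -0.97. A log2 change of 3 was passed by 19 rising genes and by 1 falling gene. Among the rising genes, 701 were not detected on any array of one of the groups, as were 324 of the falling genes, and 95 and 22 were not detected in either group. The filter asked for detection on any 3 of the 24 arrays, so a gene could enter through arrays of 1 time alone. The counts of rises and falls therefore depend in part on which genes were admitted. With no filter, 17.1% of 16593 genes rose and 11.2% fell.

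The balance of rise and fall moved with the 0 h arrays used and with the scaling. Of the calls, 66.3% were rises. This share was 57.8% when arrays were centred on their medians (786 rose and 575 fell) and 84.0% with the authors' processed values (1782 and 340). Without 0 h arrays 1 and 2 it was 47.7%, with 1402 rises (28.9%) and 1536 falls (31.7%), and with these as the only 0 h arrays it was 75.9%. With array quality weights it was 50.8%. The median change of all genes moved with these choices, to -0.14 with median centring, 0.14 with the authors' values, -0.06 without 0 h arrays 1 and 2 and 0.37 with these alone. The genes that were called overlapped more than the counts: 1240 rises were shared with the fit without 0 h arrays 1 and 2 (90.8% of the rises here and 88.4% of the rises there), and 676 falls were shared (97.3% and 44.0%). Across the 3 scalings, 732 of the 1366 rises (53.6%) and 332 of the 695 falls (47.8%) were called in the same direction every time.

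**Figure D1:**
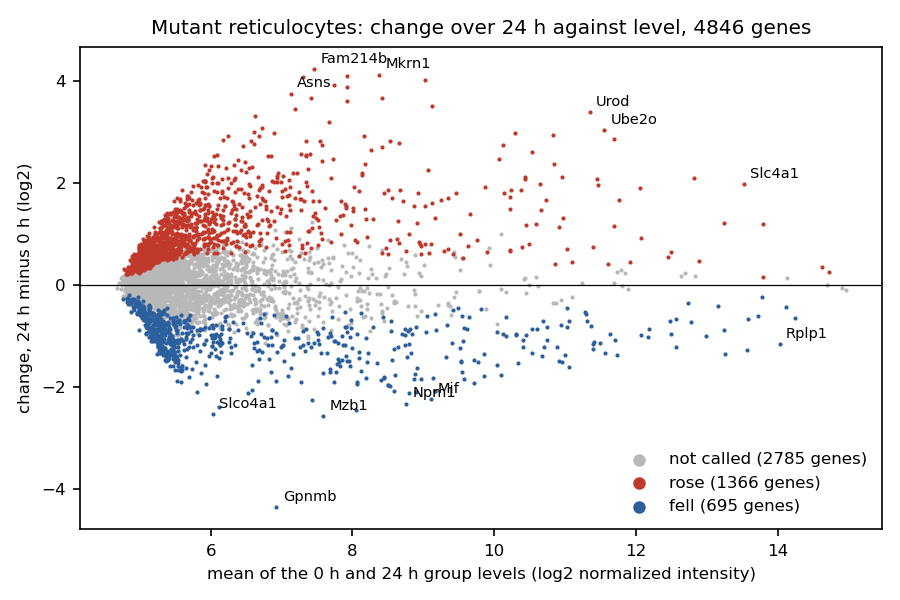
Change from 0 to 24 h in mutant reticulocytes (vertical axis, log2) against the mean of the 0 h and 24 h group levels (horizontal axis, log2 normalized intensity), with 1 point for each of 4846 genes. Red points mark the 1366 genes that rose, blue points the 695 that fell and grey points the 2785 not called, and rises reach 4.25 while Gpnmb is the only fall beyond 3.

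Fewer probes lost detection than gained it, but few could meet the condition for a loss. All 5 arrays of a time detected 620 probes at 0 h and 2435 at 24 h. Mutant 0 h array 1 detected only 925 probes, which limits the number at 0 h. There were 595 probes detected on all 10 arrays. Another 458 probes, of 386 named genes, were detected on all 5 arrays at 24 h and on none at 0 h, and 10 probes were detected on all 5 arrays at 0 h and on none at 24 h. The 10 belonged to Fam89b, Fastk, Fxyd4, Gpnmb, Gzf1, Igf2r, Olfr938, Pfkfb3, Rnf128 and Slco4a1, 7 of which were named here after their values were seen. With 0 h arrays 3 to 5 in place of all 5, gains numbered 469 probes and losses 73.

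The largest rise was that of Fam214b. Its levels at 0 h were 5.39, 4.94, 5.32, 5.61 and 5.44 (log2, arrays 1 to 5), and at 24 h they were 9.41, 9.89, 9.66, 9.38 and 9.59. The groups are far apart, and 3 of the 0 h arrays did not detect it. The difference was 4.25 ± 0.22 (SE), an 18.98-fold rise (limma adjusted p = 1.3e-08). Mkrn1, a ubiquitin ligase of the makorin family, rose by 4.14 ± 0.29 (adjusted p = 2.4e-07), from a range of 5.31 to 7.03 at 0 h to one of 10.19 to 10.69 at 24 h. Fbxo9, an F-box protein that selects substrates for a ubiquitin ligase, rose by 4.09 ± 0.26, and its other probe differed by 1.97.

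Enzymes and chaperones made up much of the rest of the top of the list. Dnajb2, a co-chaperone of Hsp70 that binds ubiquitinated proteins, stood at 8.25, 6.89, 6.68, 6.95 and 6.25 at 0 h and at 11.14, 11.05, 11.12, 10.77 and 11.09 at 24 h. It was detected on all 10 arrays, and its rise was 4.03 ± 0.30 (limma adjusted p = 4.5e-07). Pnp, which splits purine nucleosides, rose by 3.94 ± 0.31. Snrnp25, a protein of the minor spliceosome, rose by 3.89 ± 0.30, and Snx15, a sorting nexin of endosomes, by 3.62 ± 0.22. The groups of all of these genes were apart, as the rule for choosing them required. Without 0 h arrays 1 and 2 the 14 largest rises remained called, as they did with each other array left out in turn.

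The 14 largest falls included transcripts known from white cells and from growing cells. Gpnmb, a membrane glycoprotein best known from macrophages and pigment cells, stood at 8.80, 7.60, 10.69, 10.52 and 7.93 at 0 h and at 5.06, 4.58, 4.78, 4.64 and 4.66 at 24 h. It was detected on every 0 h array and on no 24 h array. It was at least 13.02-fold lower at 24 h (limma adjusted p = 2.5e-05), with group means of 9.11 and 4.75. Slco4a1, an organic anion transporter, was at least 3.70-fold lower (adjusted p = 3.8e-06), with means of 7.29 and 4.76. Olfr938, annotated as an olfactory receptor, was at least 2.74-fold lower, with means of 6.86 and 4.75. It stood at 7.97 and 8.02 on 0 h arrays 1 and 2 and at 5.90 to 6.34 on the others. These minimum folds hold on the quantile scale only. With the authors' processed values the log2 changes of Gpnmb, Slco4a1 and Olfr938 were smaller, at -1.78, -0.85 and -0.57, and all were called.

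Npm1, a nucleolar chaperone of ribosome assembly, had levels of 8.95, 9.83, 10.24, 10.14 and 10.45 at 0 h and of 7.21, 7.47, 7.80, 7.93 and 7.57 at 24 h. The 2 sets did not overlap, as the rule for choosing the largest falls required, and the change was -2.33 ± 0.28 (limma adjusted p = 2.3e-05). Mif, a cytokine made by many cell types, went from 9.69, 10.04, 10.38, 10.28 and 10.76 to 7.72, 8.09, 8.08, 7.99 and 8.09, a change of -2.24 ± 0.21. Tubb5, a beta-tubulin, changed by -2.12 ± 0.20 and Cerk, ceramide kinase, by -2.45 ± 0.28. With the authors' processed values Npm1, Mif and Tubb5 did not pass the threshold (-0.42, -0.24 and -0.17). Mzb1, a chaperone of B cells and plasma cells, changed by -2.57 ± 0.34. Fcmr, the receptor for immunoglobulin M, and Cd52, a surface protein of lymphocytes, each changed by -2.08 ± 0.33. Both failed the threshold after median centring (-1.22 and -1.24), and in the authors' values they stood at -0.09 and -0.11, also not called.

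Some large falls differed between probes or lay mostly in 2 arrays. Trp53bp1, a DNA repair protein, stood at 9.96 and 9.48 on 0 h arrays 1 and 2, at 7.54 to 8.03 on the other 0 h arrays and at 6.19 to 6.47 at 24 h, and its other probe differed by 0.36 where this one changed by -2.26. Without 0 h arrays 1 and 2 the change was -1.48. Oser1 stood at 9.11 and 8.55 on 0 h arrays 1 and 2 and at 6.05 to 7.40 on the others. Its change of -2.13 ± 0.47 was -1.29 without these arrays (limma adjusted p = 0.00029). Abi3, an adaptor of actin regulation, changed by -2.06 ± 0.27.

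**Figure D2:**
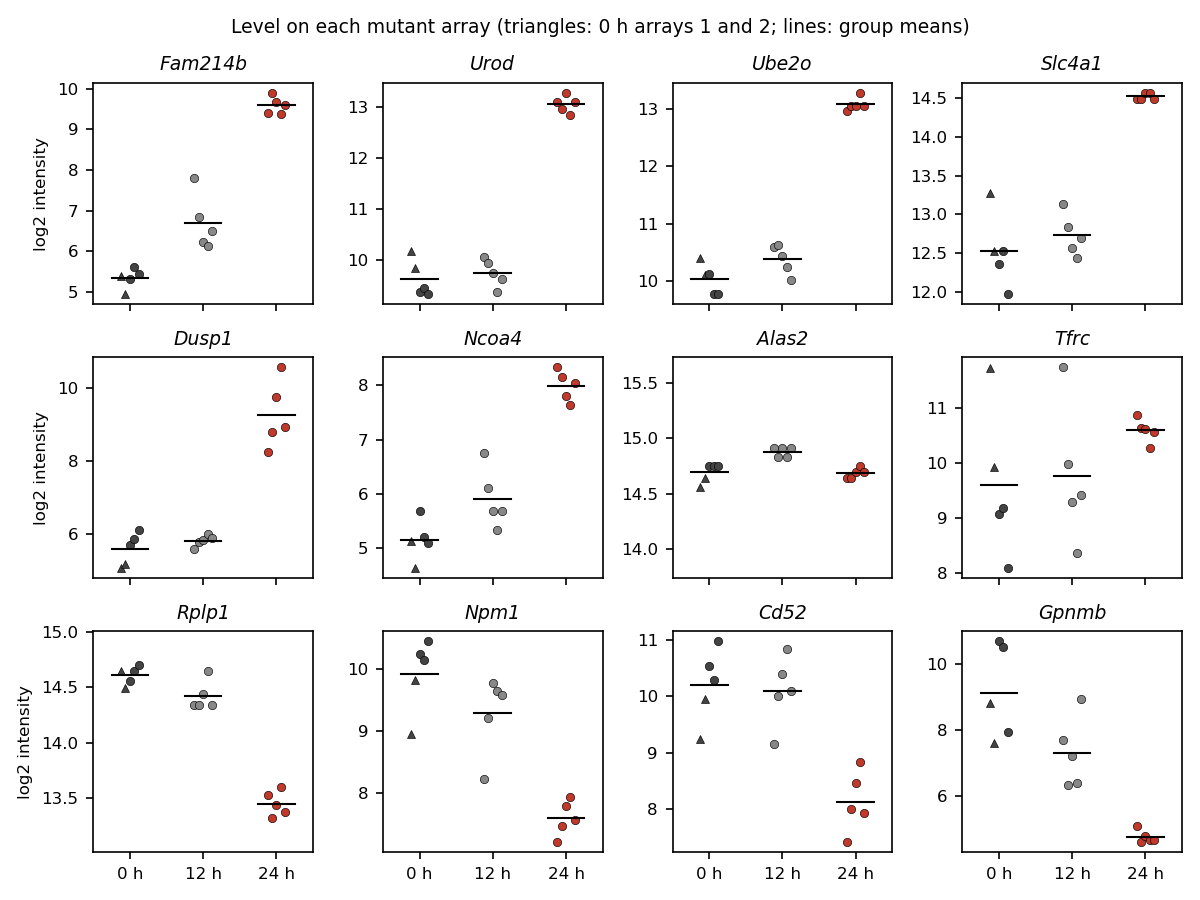
Level (log2 normalized intensity, vertical axis of each panel, with its own range) of 12 genes on each mutant array at 0, 12 and 24 h. Points are arrays, triangles mark 0 h arrays 1 and 2, and lines mark group means. Fam214b, Urod and Ube2o lie higher on every 24 h array than on any 0 h array, Rplp1, Npm1 and Gpnmb lie lower, and Tfrc and Alas2 overlap.

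Heme synthesis, by which the red cell makes the iron-carrying group of hemoglobin, rose in 9 of 14 measured genes and fell in none, with a median change of 0.88 against 0.10 for all genes. Urod, which makes coproporphyrinogen in the cytosol, stood at 10.18, 9.85, 9.38, 9.46 and 9.34 at 0 h and at 13.09, 12.96, 13.27, 12.84 and 13.09 at 24 h. The groups were separated by more than 2 log2 units, and the rise was 3.40 ± 0.16, or 10.6-fold (limma adjusted p = 1.2e-08). Glrx5 and Isca1, which serve the assembly of iron-sulfur clusters, rose by 1.66 ± 0.12 and 1.16 ± 0.09. Uros, the enzyme before Urod in the pathway, was at least 1.06-fold higher (adjusted p = 5.8e-05), with means of 4.80 and 6.01, and was not detected at 0 h. The count of rises was 12 under median centring, 14 with the authors' values and 13 without 0 h arrays 1 and 2, with no fall in any of them.

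The first enzyme of the pathway in red cells, Alas2, was not called. Its levels were 14.56, 14.65, 14.75, 14.75 and 14.75 at 0 h and 14.65, 14.65, 14.70, 14.75 and 14.70 at 24 h, a change of -0.01 ± 0.04 (limma adjusted p = 0.93). Hba-a1 was not called either (-0.09 ± 0.05, adjusted p = 0.13), though it passed at -0.12 without 24 h array 3 or 4. Both probes ranked at or above the 99.9th percentile of every array, where quantile normalization gives all arrays nearly the same values. Under median centring the changes were 0.86 and 0.58, and with the authors' values 2.10 and 1.83, all past the threshold. Of 5 globin genes, 2 rose and none fell: the adult chain Hbb-bt by 0.47 ± 0.12 with overlapping groups, and the embryonic chain Hbb-bh1, which was at least 1.25-fold higher (adjusted p = 9.8e-05) with means of 4.80 and 6.26.

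Iron handling was called in 1 of 8 genes (12.5%, beside 42.5% of all genes). This was Ncoa4, the receptor that brings ferritin to the lysosome, which stood at 5.13, 4.63, 5.69, 5.20 and 5.10 at 0 h and at 8.33, 8.15, 7.79, 7.63 and 8.04 at 24 h. It was detected on 1 array at 0 h and on all 5 at 24 h, and it rose by 2.84 ± 0.24 (limma adjusted p = 1.3e-06). Tfrc, the transferrin receptor that the maturing cell sheds in vesicles, had levels of 11.72 and 9.92 on 0 h arrays 1 and 2, of 9.07, 9.18 and 8.08 on the other 0 h arrays, and of 10.28 to 10.87 at 24 h. The groups overlapped, and its change of 1.001 ± 0.48 was not called (adjusted p = 0.11). Without 0 h array 1 it was 1.53 and called, without 0 h array 5 it was 0.62, without 0 h arrays 1 and 2 it was 1.82 (adjusted p = 4.3e-06), and with these as the only 0 h arrays it was -0.23.

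Membrane and surface proteins of the red cell rose in 16 of 24 measured genes and fell in 2, with a median change of 0.79. Slc4a1, the band 3 anion exchanger, stood at 13.27, 12.53, 12.36, 12.53 and 11.97 at 0 h and at 14.49, 14.49, 14.56, 14.56 and 14.49 at 24 h. All 24 h arrays were higher, and the rise was 1.99 ± 0.16, or 3.96-fold (limma adjusted p = 9.4e-07). Tmod1, which caps actin filaments, rose by 2.03 ± 0.21, and Mpp1, the palmitoylated protein p55, by 2.92 ± 0.31. Tpm1, tropomyosin, was at least 4.52-fold higher (adjusted p = 2.1e-07), with means of 5.11 and 8.11, and was not detected at 0 h. Rises numbered 15, 19 and 20 under median centring, with the authors' values and without 0 h arrays 1 and 2. The list's median rank within an array, a measure that no scaling of a whole array alters, was the 49.9th to 72.3rd percentile at 0 h and the 80.4th to 86.2nd at 24 h. Ranks do not remove the difference in background between the times, here or for the lists below. In this list 9 of the 24 genes were detected on no 0 h array.

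Erythroid transcription factors rose in 7 of 20 genes and fell in 1, a share of rises of 35.0% beside 28.2% of all genes. Zfpm1, the GATA1 cofactor FOG1, rose by 2.17 ± 0.37, Nfe2 by 1.55 ± 0.27 and Nfe2l1 by 1.28 ± 0.23. Ldb1, which bridges distant enhancers and globin genes, fell by 1.71 on the log2 scale, and was not called under median centring. Gata1 itself was not detected at 0 h and was detected on 4 arrays at 24 h, with means of 5.04 and 5.55 (limma adjusted p = 0.024), and the call was lost under median centring and without 0 h array 4, 0 h array 5 or 24 h array 2.

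Ubiquitin enzymes of maturing red cells rose in 14 of 21 genes and fell in 2, with a median change of 1.20. Ube2o, an enzyme that tags proteins of the reticulocyte for the proteasome, stood at 10.40, 10.10, 10.12, 9.77 and 9.78 at 0 h and at 12.96, 13.04, 13.04, 13.27 and 13.04 at 24 h. Every 24 h array exceeded every 0 h array, and the rise was 3.04 ± 0.13, or 8.22-fold (limma adjusted p = 5.3e-09). Trim10, a ligase needed for terminal red cell differentiation, rose by 2.87 ± 0.23 and Rnf10 by 1.20 ± 0.07. Ube2l6 changed by -1.002 ± 0.08 on this scale (adjusted p = 6.0e-07), by -0.03 under median centring (not called) and by 1.20 with the authors' values, where it rose. The list's median rank moved from the 66.3rd to 83.6th percentile at 0 h to the 87.4th to 90.2nd at 24 h.

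Proteasome genes rose in 14 of 36 (38.9%, beside 28.2% of all genes) and fell in 2, with a median of 0.46. Those with the smallest p were Psmd4, Psme3, Psme4 and Psmd8. Psmd4, a ubiquitin receptor of the regulatory particle, rose by 1.87 ± 0.15, Psme3, an activator, by 1.67 ± 0.16, Psme4 by 1.93 ± 0.27 and Psmd8 by 1.52 ± 0.23. Psmd4 levels were 9.05, 9.46, 9.27, 9.18 and 9.53 at 0 h and 11.29, 11.12, 11.29, 11.03 and 11.11 at 24 h, well apart. Over the whole list the counts depended on the setting. Under median centring 6 rose (16.7%, beside 16.2% of all genes) and 1 fell. Without 0 h arrays 1 and 2, 15 rose and 10 fell, beside 28.9% and 31.7% of all genes.

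**Figure D3:**
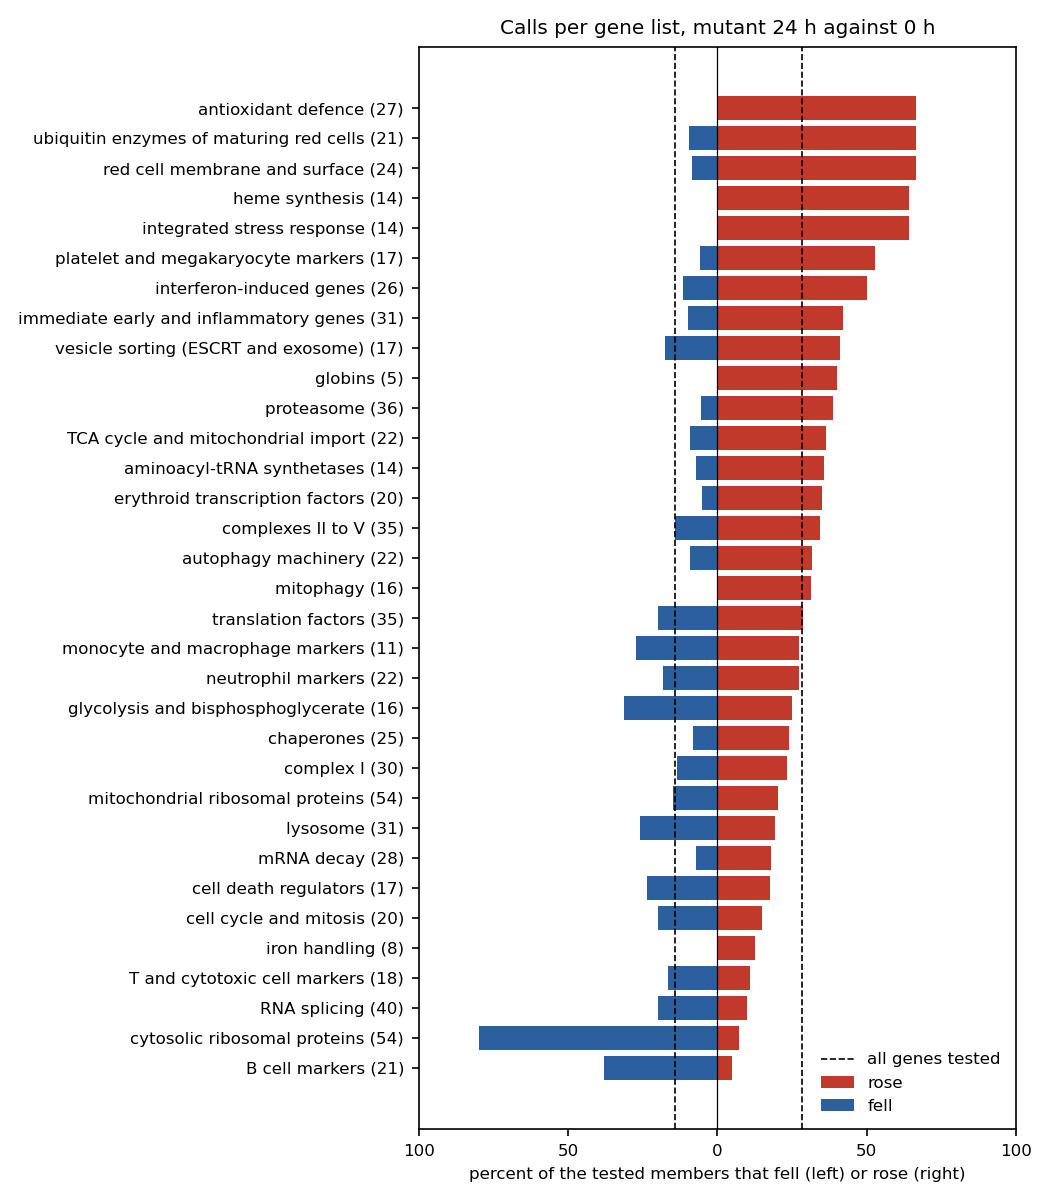
Percent of the tested members of each of 33 gene lists that rose (red, to the right) or fell (blue, to the left), with the number tested in brackets and dashed lines at the shares of all 4846 genes. Antioxidant, ubiquitin enzyme, membrane, heme synthesis and integrated stress response genes show the highest shares of rises, and cytosolic ribosomal proteins, whose direction depends on the scaling, the highest share of falls (43 of 54).

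Mitophagy genes, which mark mitochondria for removal, rose in 5 of 16 and fell in none, close to the 28.2% of all genes. Pink1, a kinase that labels damaged mitochondria, stood at 5.99, 5.70, 6.80, 7.57 and 6.82 at 0 h and at 10.07, 10.35, 10.23, 10.04 and 10.60 at 24 h. The sets are apart, and the rise was 3.68 ± 0.32, or 12.8-fold (limma adjusted p = 1.2e-06), while its other probe rose by 2.84. Fkbp8, a mitochondrial receptor for autophagy, rose by 2.54 ± 0.33, and Trak2, an adaptor for transport of mitochondria, by 1.60 ± 0.40 with overlapping groups, the difference being 0.55 and not called with 0 h arrays 1 and 2 alone. Bnip3l, the receptor that reticulocytes need to clear their mitochondria, was not called (0.14 ± 0.07, adjusted p = 0.14), though it passed at 0.21 without 0 h array 4. It too lay near the top of every array, and its change was 1.003 when arrays were centred on their medians and 2.24 in the authors' values.

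Autophagy machinery rose in 7 of 22 genes (31.8%, beside 28.2% of all genes) and fell in 2. Without 24 h array 5, 4 of these genes rose. Ulk1, the kinase that starts autophagy, stood at 5.53, 5.64, 5.73, 5.64 and 5.62 at 0 h and at 7.09, 6.89, 6.86, 6.52 and 6.88 at 24 h, with no overlap. Its rise was 1.22 ± 0.20 (limma adjusted p = 0.00025), another probe differed by -0.33, and the mean of its probes was not called. Sqstm1, the cargo receptor p62, rose by 1.88 ± 0.40, and by 1.15 without 0 h arrays 1 and 2, on which it was not detected. Lysosome genes rose in 6 of 31 (19.4%, beside 28.2% of all genes) and fell in 8 (25.8%, beside 14.3%). With the authors' values 10 rose and 1 fell, beside 36.8% and 7.02% of all genes. Without 0 h arrays 1 and 2, 6 rose and 16 fell, beside 28.9% and 31.7% of all genes. The rises included subunits of the proton pump, Atp6v1e1 (2.79 ± 0.36) and Atp6v0d1 (2.20 ± 0.24). Psap, the precursor of lysosomal saposins, went from 9.05, 9.28, 10.80, 10.66 and 9.95 to 7.51, 7.82, 8.03, 8.20 and 7.73, a change of -2.09 ± 0.33 (adjusted p = 0.0002) that was not called under median centring. Vesicle sorting genes rose in 7 of 17 (41.2%, beside 28.2% of all genes) and fell in 3 (17.6%, beside 14.3%). Among them, Sdcbp, syntenin, rose by 1.67 ± 0.19 and Chmp2a, a part of the membrane-cutting ESCRT-III complex, by 1.65 ± 0.28.

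Mitochondrial genes were mixed. Of all genes 28.2% rose and 14.3% fell. Complex I rose in 7 of 30 genes (23.3%) and fell in 4 (13.3%), and complexes II to V rose in 12 of 35 (34.3%) and fell in 5 (14.3%). Genes of the TCA cycle and of import rose in 8 of 22 (36.4%) and fell in 2 (9.09%). Mitochondrial ribosomal proteins rose in 11 of 54 (20.4%) and fell in 8 (14.8%), and under median centring 2 rose and 10 fell. These shares on the quantile scale were not far from those of all genes. With the authors' values complex I rose in 20 genes and complexes II to V in 25, beside 36.8% of all genes, and under median centring complexes II to V rose in 13 and fell in none, beside 16.2% of all genes. Complex I had 11 rises without 0 h array 3 or 5, and leaving out 0 h array 2 or 5 or any 1 array at 24 h left it with 1 or 2 falls. Mitochondrial ribosomal proteins had 21 falls without 0 h arrays 1 and 2, beside 31.7% of all genes. Atp5b, the catalytic chain of ATP synthase, went from 9.89, 9.64, 10.23, 10.11 and 10.02 to 11.31, 11.35, 11.35, 10.87 and 11.06, without overlap, a rise of 1.21 ± 0.15 (limma adjusted p = 4.2e-05). Slc25a39, a carrier that brings glutathione into mitochondria, rose by 1.15 ± 0.15 and Tomm7, of the outer membrane import pore, by 1.76 ± 0.25. Ndufc2, a subunit of complex I, changed by -1.30 ± 0.22. The mitochondrial ribosomal proteins Mrps21 and Mrpl36 moved apart, by 1.36 ± 0.23 and -1.15 ± 0.24. Mdh2, malate dehydrogenase, was at least 1.53-fold higher, with means of 4.84 and 6.54, and Ogdh, of the same cycle, rose by 1.37 ± 0.22.

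Cytosolic ribosomal protein genes had the highest share of calls in 1 direction of the 33 lists on the quantile scale, where 43 of 54 fell and 4 rose (2 without 24 h array 2, 3 or 5) with a median of -0.96, but 2 fell and 2 rose under median centring, and 42 rose and none fell with the authors' values. The direction of this list is therefore set by the scaling. Rplp1, of the ribosomal stalk, stood at 14.65, 14.49, 14.56, 14.65 and 14.70 at 0 h and at 13.52, 13.32, 13.44, 13.60 and 13.37 at 24 h on the quantile scale. The change was -1.16 ± 0.06 there (limma adjusted p = 1.3e-08), -0.28 with arrays centred on their medians and 0.97 in the authors' values. Rps12, Rps20 and Rpl12 changed by -1.28 ± 0.07, -1.35 ± 0.09 and -1.50 ± 0.12 on the quantile scale, and their differences were 0.91, 0.89 and 0.70 with the authors' values, the last not called.

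Relative to the other transcripts of the same array, ribosomal protein genes lost ground. Their median rank was the 98.2nd to 98.6th percentile on 0 h arrays and the 97.0th to 97.3rd on 24 h arrays, and the ranges do not overlap. Their summed level on the quantile scale was 225263 to 259575 at 0 h and 117727 to 130211 at 24 h. The exceptions named here after their values were seen are the 4 rises, Rpl7a (1.76), Rplp0 (0.65), Rpl13a (0.62) and Rpl21 (0.25). Ribosomal protein genes have many near-identical processed pseudogenes, and a probe may read both.

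Mammalian ribosomal protein transcripts begin with a run of pyrimidines that controls their translation. A run of at least 7 C or T on the gene's strand, between 5 bases before and 10 bases after the annotated start, was present in 18 of 46 ribosomal protein genes with a promoter sequence, in 15 of the 37 that fell on the quantile scale, and in 8.78% of all 27025 genes. The start windows of 4 genes that fell on that scale are shown, 15 bases before to 15 after the start, with the run in capitals (RefSeq, GRCm38.p6), the last 3 chosen after their values were seen.
Rpl12, chr2:32961697-32961726, plus strand: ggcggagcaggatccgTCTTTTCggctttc
Rpl35, chr2:39005117-39005146, minus strand: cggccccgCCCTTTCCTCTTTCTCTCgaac
Rpl38, chr11:114668565-114668594, plus strand: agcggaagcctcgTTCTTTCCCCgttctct
Rps6, chr4:86857353-86857382, minus strand: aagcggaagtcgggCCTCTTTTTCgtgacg
The quantile-scale changes of Rpl35, Rpl38 and Rps6 were -1.33, -1.21 and -1.54, near that of Rpl12.

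Translation factors rose in 10 of 35 genes (28.6%, beside 28.2% of all genes) and fell in 7, with 11 falls without 0 h array 1. Eif5, an initiation factor that acts at the start codon, went from 14.16, 14.02, 13.96, 14.16 and 13.82 to 13.37, 13.60, 13.37, 13.32 and 13.44, a change of -0.61 ± 0.07 (limma adjusted p = 2.7e-05) that was 0.30 under median centring (not called) and 1.54 with the authors' values. Its other probes differed by -0.06 and 0.56, and the mean of its probes was not called. Eif3c, a subunit of initiation factor 3, was at least 1.44-fold higher, with means of 4.89 and 6.45. Aminoacyl-tRNA synthetases rose in 5 of 14 genes (35.7%, beside 28.2% of all genes) and fell in 1. Nars, which charges asparagine tRNA, was not detected at 0 h and was at least 2.97-fold higher at 24 h (adjusted p = 3.8e-06), with means of 5.15 and 7.50.

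**Figure D4:**
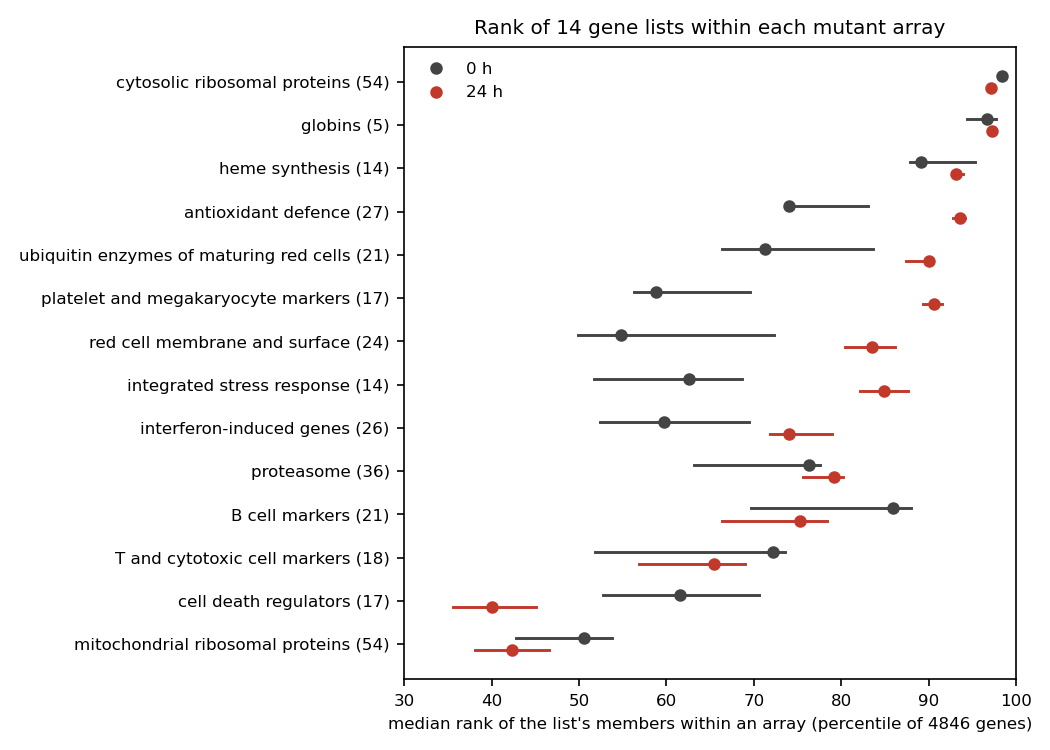
Median rank of the members of 14 gene lists within each mutant array (percentile among 4846 genes, 100 being the brightest). Points are the median and lines the range over 5 arrays at 0 h (dark) and 24 h (red). Antioxidant, membrane, ubiquitin enzyme, integrated stress response and platelet genes rank higher on every 24 h array, and cytosolic ribosomal proteins and cell death regulators rank lower. Ranks do not remove the difference in background between the times.

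Antioxidant genes rose in 18 of 27 and fell in none, with a median change of 1.37. Rises numbered 19 under median centring, 22 with the authors' values and 19 without 0 h arrays 1 and 2, where 1 fell. Mgst3, a microsomal glutathione transferase, stood at 7.11, 5.31, 5.65, 5.80 and 5.45 at 0 h and at 10.47, 10.19, 9.82, 9.34 and 10.01 at 24 h. Array 1 was the highest at 0 h, and all 24 h arrays lay above it. The rise was 4.103 ± 0.34 (limma adjusted p = 8.7e-07), and 3.75 at its other probe. Txnrd2, the thioredoxin reductase of mitochondria, rose by 3.47 ± 0.26, Blvrb, which reduces biliverdin and flavins in red cells, by 2.37 ± 0.19, and Glo1, which detoxifies methylglyoxal, by 2.62 ± 0.23. The list's median rank was the 73.6th to 83.1st percentile at 0 h and the 92.8th to 94.1st at 24 h.

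The integrated stress response slows protein synthesis when heme or amino acids run short and raises a set of genes through the factor Atf4. Of 14 measured genes of this list 9 rose and none fell, with a median change of 0.96. Asns, asparagine synthetase, stood at 5.73, 5.01, 5.21, 5.14 and 5.16 at 0 h and at 8.78, 9.03, 9.22, 9.02 and 9.01 at 24 h. It was detected on no 0 h array and on every 24 h array, and the rise was at least 8.46-fold (limma adjusted p = 3.0e-08), with means of 5.25 and 9.01. Its other probes were 0.70 and 2.87 higher. Eif2ak1, the kinase that senses heme shortage in red cells, rose by 2.57 ± 0.26 and Ppp1r15a, which reverses its action, by 1.42 ± 0.20. Shmt2, a mitochondrial enzyme of serine and glycine, was at least 1.11-fold higher, with means of 4.69 and 6.08. Rises numbered 6 under median centring, 10 with the authors' values and 9 without 0 h arrays 1 and 2, where 2 fell.

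The sequence TGATGNAA, a match to the composite element bound by Atf4 with a C/EBP partner, was searched on both strands from 250 bases before to 50 bases after the start. It was present in 3 of 14 genes of the list with a promoter sequence, in 2 of the 9 that rose and in 4.51% of all 27025 genes. The 50 bases around it in the 2 that rose are shown with the match in capitals, which lies on the minus strand of the gene in Chac1 (RefSeq, GRCm38.p6).
Asns, chr6:7693210-7693259, minus strand, 23 bases before the start: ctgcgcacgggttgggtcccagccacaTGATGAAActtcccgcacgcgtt
Chac1, chr2:119351028-119351077, plus strand, 193 bases before the start: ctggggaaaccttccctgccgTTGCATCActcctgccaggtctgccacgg
Chac1, which degrades glutathione, was named for this match after its values were seen, and its change was 0.58.

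Genes of glycolysis, of bisphosphoglycerate and of linked pathways rose in 4 of 16 and fell in 5. With the authors' values 8 rose and 1 fell, without 0 h arrays 1 and 2, 5 rose and 9 fell, and falls numbered 3 when 0 h array 3, 4 or 5 or any 1 array at 24 h was left out. Not all members of this list are glycolytic enzymes. Its largest rise was that of Pnp (3.94), which splits purine nucleosides. Taldo1, of the pentose phosphate pathway, rose by 1.98 ± 0.14 (limma adjusted p = 3.1e-07). Bpgm, which makes the bisphosphoglycerate that lowers the oxygen affinity of hemoglobin, was detected on no 0 h array and was at least 1.83-fold higher at 24 h, with means of 4.83 and 6.80. Pklr, the pyruvate kinase of red cells and liver, was detected on 3 arrays at 0 h and on none at 24 h, and was at least 1.49-fold lower (adjusted p = 0.00046), with means of 5.98 and 4.74. The isoform that the probe reads was not examined. Among chaperones 6 of 25 rose (24.0%, beside 28.2% of all genes) and 2 fell. But 4 fell without 0 h array 1, and 7 rose and 11 fell without 0 h arrays 1 and 2. The DnaJ protein Dnajb6 rose by 1.65 ± 0.23.

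Interferon-induced genes rose in 13 of 26 and fell in 3, with a median change of 0.72. Rsad2, viperin, stood at 12.15, 11.60, 11.72, 12.21 and 11.17 at 0 h and at 14.02, 13.82, 14.02, 13.44 and 14.09 at 24 h. The sets did not overlap, and the rise was 2.11 ± 0.18 (limma adjusted p = 1.1e-06). Ifi27 rose by 3.52 ± 0.27, from a range of 6.82 to 7.98 at 0 h to one of 10.34 to 11.40 at 24 h, and Oasl2 by 2.99 ± 0.25, its other probe by 1.35. B2m, the light chain of MHC class I, changed by -1.37 ± 0.21 on the quantile scale, by -0.39 under median centring and by 0.78 with the authors' values, neither of the latter called. Rises numbered 8 under median centring, 16 with the authors' values and 14 without 0 h arrays 1 and 2, where 5 fell.

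A pair of TTTC blocks with any 2 bases between them, the core of the element through which interferon acts, was present on either strand of the promoter window in 11 of 23 genes of this list with a promoter sequence, in 6 of 11 that rose and in 3.99% of all genes. For 5 of the 6, all but 1 chosen after their values were seen, 50 bases around the match are shown with it in capitals (RefSeq, GRCm38.p6), and in Isg15 the capitals cover overlapping matches.
Rsad2, chr12:26456543-26456592, minus strand: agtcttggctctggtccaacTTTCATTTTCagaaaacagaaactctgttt
Gbp2, chr3:142620584-142620633, plus strand: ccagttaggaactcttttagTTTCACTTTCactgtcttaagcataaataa
Igtp, chr11:58199502-58199551, plus strand: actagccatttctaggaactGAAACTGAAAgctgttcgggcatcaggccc
Ifit3, chr19:34583387-34583436, plus strand: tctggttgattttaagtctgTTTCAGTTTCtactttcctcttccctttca
Isg15, chr4:156200855-156200904, minus strand: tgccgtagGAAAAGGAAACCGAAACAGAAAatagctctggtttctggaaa
The changes of Gbp2, Igtp, Ifit3 and Isg15 were 1.29, 1.47, 0.73 and 0.77.

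Other motifs were searched in the same way on both strands. TGACNNNGC, the core of the antioxidant response element, was in 7 of 26 antioxidant genes, 4 of the 18 that rose and 13.99% of all genes. AGATAA, bound by factors such as Gata1, was in 6 of 19 membrane genes, 4 of the 13 that rose and 12.7% of all genes.

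Immediate early and inflammatory genes rose in 13 of 31 (41.9%, beside 28.2% of all genes) and fell in 3. Under median centring 5 rose (16.1%, beside 16.2% of all genes), and without 0 h arrays 1 and 2, 7 fell, beside 31.7% of all genes. Dusp1, a phosphatase induced by stress, stood at 5.05, 5.18, 5.70, 5.85 and 6.10 at 0 h and at 8.24, 8.79, 9.74, 10.57 and 8.93 at 24 h. It was the least even of the large rises at 24 h (SD 0.91), with no overlap, and rose by 3.68 ± 0.39, or 12.8-fold (limma adjusted p = 8.4e-06). Fos, a subunit of the AP-1 factor, was at least 2.61-fold higher (adjusted p = 1.7e-05), with means of 4.78 and 7.32, and Cxcl2, a chemokine that attracts neutrophils, at least 1.23-fold higher, with means of 4.88 and 6.23. Neither was detected on any 0 h array. These genes are usually transcribed in nucleated cells on stimulation, so the markers of such cells are given next.

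White cell transcripts were present at both times. B cell markers fell in 8 of 21 genes and rose in 1, with a median change of -0.58, and their summed level ranged from 3298 to 11010 at 0 h and from 1880 to 4084 at 24 h. Median centring gave 0 falls, as did the authors' values, and there were 15 without 0 h arrays 1 and 2 or without 0 h array 1, and 5 without 0 h array 3, 4 or 5 or 24 h array 1. Cd79b, of the B cell receptor, stood at 7.84, 9.78, 10.01, 9.26 and 9.89 at 0 h and at 6.86, 7.56, 7.89, 7.93 and 7.39 at 24 h. Only 0 h array 1 lay within the 24 h range, and the change was -1.83 ± 0.38 (limma adjusted p = 0.0015), which was not called under median centring (-1.17) or with the authors' values (-0.13). Cd74 fell by 1.47 on the quantile scale, and Cd79a was not called (0.05). Fcer2a, the receptor for immunoglobulin E, was the member that rose, with means of 4.83 and 5.88.

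T and cytotoxic cell markers fell in 3 of 18 genes (16.7%, beside 14.3% of all genes) and rose in 2 (11.1%, beside 28.2%). Their sums were 1286 to 2560 at 0 h and 1062 to 1358 at 24 h. Falls numbered 8 without 0 h array 1 and 11 without 0 h arrays 1 and 2, beside 19.9% and 31.7% of all genes. With the authors' values 5 rose and 1 fell, beside 36.8% and 7.02% of all genes. Cd3d, of the T cell receptor complex, went from 7.52, 8.30, 8.16, 7.99 and 7.80 to 6.02, 5.96, 6.71, 6.50 and 6.41, without overlap, a change of -1.63 ± 0.24 (limma adjusted p = 0.00013). Il7r changed by -1.45 ± 0.28 and Cd8b1 by -1.90 ± 0.36, and their other probes differed by -0.13 and -0.22. With the authors' values the differences of Cd3d, Il7r and Cd8b1 were -0.36, -0.37 and -0.32, none called, and Cd8b1 was not called under median centring. Sums of neutrophil markers were 5613 to 16945 and 3022 to 11484. These markers rose in 6 of 22 genes (27.3%, beside 28.2% of all genes) and fell in 4. None of them fell under median centring or with the authors' values, and 2 fell when 0 h array 3, 4 or 5 or 24 h array 1, 2 or 5 was left out. Pglyrp1 and Ltf, of neutrophil granules, rose by 1.56 ± 0.27 and 1.29 ± 0.30. S100a8, of the neutrophil cytosol, had means of 12.03 and 10.77 and a change of -1.26 (adjusted p = 0.042). Monocyte and macrophage markers rose in 3 of 11 (27.3%, beside 28.2% of all genes) and fell in 3 (27.3%, beside 14.3%). Their sums were 1014 to 2082 at 0 h and 724 to 1074 at 24 h. Changes in this list ranged from -1.40 to 1.47, and only members that were higher at 24 h are named below. F13a1, a clotting factor chain that monocytes and platelets make, was at least 1.41-fold higher at 24 h, with means of 4.96 and 6.43, and Cd14 was at least 1.12-fold higher, with means of 4.70 and 6.10. The part of these cells in the changes of the immediate early, interferon and other lists was not tested.

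Platelet and megakaryocyte markers rose in 9 of 17 genes and fell in 1, with a median change of 0.68. Gp5, a subunit of the platelet receptor for von Willebrand factor, stood at 4.61, 4.78, 4.62, 4.89 and 4.83 at 0 h and at 7.61, 7.44, 7.48, 7.63 and 7.83 at 24 h. It was detected at 24 h only, a rise of at least 3.17-fold (limma adjusted p = 1.4e-07), with means of 4.75 and 7.60. Vwf rose by 2.54 ± 0.27, Plek, the platelet protein pleckstrin, by 2.01 ± 0.22, and Itga2b, the alpha chain of the fibrinogen receptor, by 1.92 ± 0.22. The platelet markers Pf4, Ppbp and Gp9 were not called (0.22, 0.66 and -0.44). The summed level of the list was 9526 to 13390 at 0 h and 7503 to 10925 at 24 h, so the sum, which the brightest genes set, did not rise with the count. The median rank went from the 56.3rd to 69.5th percentile to the 89.4th to 91.5th.

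Leaving out 0 h arrays 1 and 2 raised the share of falls among all genes from 14.3% to 31.7%, while that of rises was 28.2% and 28.9%. The falls also grew in number in lists of general cell processes, for cell cycle genes only from 4 to 5 of 20. Splicing genes rose in 4 of 40 and fell in 8, with 15 falls without 0 h array 1 and 23 without 0 h arrays 1 and 2. Without 24 h array 1, 2 splicing genes rose. mRNA decay genes rose in 5 of 28 and fell in 2, with 10 falls without these 2 arrays, 5 without either one of them and 4 without 0 h array 5. Cell cycle genes rose in 3 of 20 (5 without 0 h array 1) and fell in 4, the rises including Nusap1, a protein of the mitotic spindle, by 3.20 ± 0.31 (its other probe by 0.03), and Cdc25b, a phosphatase that starts mitosis, which was at least 1.37-fold higher with means of 4.67 and 6.39. Cell death regulators rose in 3 of 17 and fell in 4, with 9 falls without 0 h arrays 1 and 2 and 2 without 24 h array 3 or 5. Their median rank was the 52.7th to 70.6th percentile at 0 h and the 35.5th to 45.1st at 24 h. Paqr9, a membrane protein of the progestin and adipoQ receptor family, rose by 2.72 ± 0.24 (limma adjusted p = 1.7e-06), with an other probe at 0.46.

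The mutant 12 h arrays, which the test did not use, give the levels between the 2 times. They did enter the filter, the normalization and the choice of probes. Their median raw intensities were 40.2 to 44.3, against 139 to 278 at 0 h. Time and background cannot be told apart between 0 and 12 h either, so the timing of the change is not settled. Of the 1366 genes that rose, the 12 h mean lay nearer the 0 h mean, or on its far side, for 683, and beyond the 24 h mean for 182. For the 695 that fell, the counts were 367 (52.8%) and 98. Urod stood at 9.39 to 10.07 and Dusp1 at 5.58 to 5.98 at 12 h, both within their 0 h ranges. Ppp1r15a stood at 7.25 to 8.55 at 12 h, and 3 of the 5 arrays were at or above its lowest level at 24 h. Trp53bp1 and Oser1, at 5.90 to 6.41 and 5.03 to 5.37, were no higher at 12 h than on the highest 24 h array.

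The change over 24 h was also set against that of wild-type arrays, 3 at each time, by the difference of the changes in 1 model over 16 arrays. Wild-type arrays detected 4.62, 2.17 and 3.58% of probes at 0 h and 7.31, 7.72 and 6.93% at 24 h. Mutant arrays detected 3.60 to 17.04% and 10.2 to 18.3%. The part of this unlike detection in the differences was not tested. The difference of the changes was called for 421 of 4846 genes (8.69%), above 0 for 118 (2.43%) and below 0 for 303 (6.25%). The count depended on the scaling and on the arrays: it was 76 under median centring, 185 with the authors' values and 1642 without mutant 0 h arrays 1 and 2. Leaving out wild-type 0 h array 1 gave 844, wild-type 24 h array 1 gave 278, wild-type 24 h array 2 gave 254 and mutant 0 h array 1 gave 922. By contrast, the counts for the mutant change alone stayed within 1744 to 2308 with any 1 array left out.

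The 8 genes with the smallest p for this difference are described here. Ube2o rose by 3.04 in mutant, from 10.03 ± 0.26 to 13.07 ± 0.12 (SD, n = 5), and stood at 13.83 ± 0.22 and 14.07 ± 0.04 (SD, n = 3) in wild type, a difference of 2.80 ± 0.19 (SE, limma adjusted p = 1.2e-07). The mutant level at 24 h thus lay below the wild-type level at either time. Riok3, an atypical kinase of red cell maturation, went from 11.11 ± 0.21 to 13.01 ± 0.05 in mutant and from 12.73 ± 0.21 to 12.78 ± 0.18 in wild type, a difference of 1.85 ± 0.18. Adipor1, an adiponectin receptor, went from 10.49 to 12.45 in mutant and from 12.75 to 13.06 in wild type, a difference of 1.66 ± 0.16. In these genes, as in Isca1 (1.38 ± 0.13) and the ubiquitin pseudogene Ubb-ps (1.31 ± 0.11), whose probe may read Ubb, the mutant started lower and rose, while the wild-type differences were 0.31 or less in size. With the authors' values none of these 5 differences was called, and under median centring those of Adipor1, Isca1 and Ubb-ps were not.

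The other 3 genes changed less in mutant than in wild type. Atp5j, a peripheral subunit of ATP synthase, was at 7.38 ± 0.59 and 7.11 ± 0.17 in mutant, and went from 4.99 ± 0.26, not detected on any array, to 9.27 ± 0.38 in wild type, with an adjusted p for the difference of 1.3e-05. Eif5 stood at 14.03 and 13.42 in mutant and at 11.06 ± 0.10 and 12.03 ± 0.27 in wild type, a difference of -1.58 ± 0.16. Snx3, a sorting nexin, was not detected in mutant at either time (4.898 and 4.79) and was detected in wild type at 24 h only (4.75 and 6.36). These 3 differences were called under all scalings.

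Among the largest mutant changes, some differed from wild type and some did not. Ncoa4 rose in mutant and stood at 10.64 ± 0.22 and 10.47 ± 0.28 in wild type, a difference of 3.01 ± 0.42 (limma adjusted p = 0.00039). For Paqr9, with wild-type levels of 10.66 and 10.79, the difference was 2.59 ± 0.40. Npm1, Mif, Tubb5, Fcmr and Mzb1 fell in mutant and had wild-type differences of 1.02, 0.86, 1.42, 1.22 and 0.54, none of them called. The differences between genotypes were -3.34, -3.09, -3.53, -3.30 and -3.11, all called, but each was detected on 1 of 3 wild-type 0 h arrays. For Fam214b, Mkrn1, Urod and Slc4a1 the difference was not called, with wild-type changes of 3.52, 4.50, 2.75 and 1.43.

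**Figure D5:**
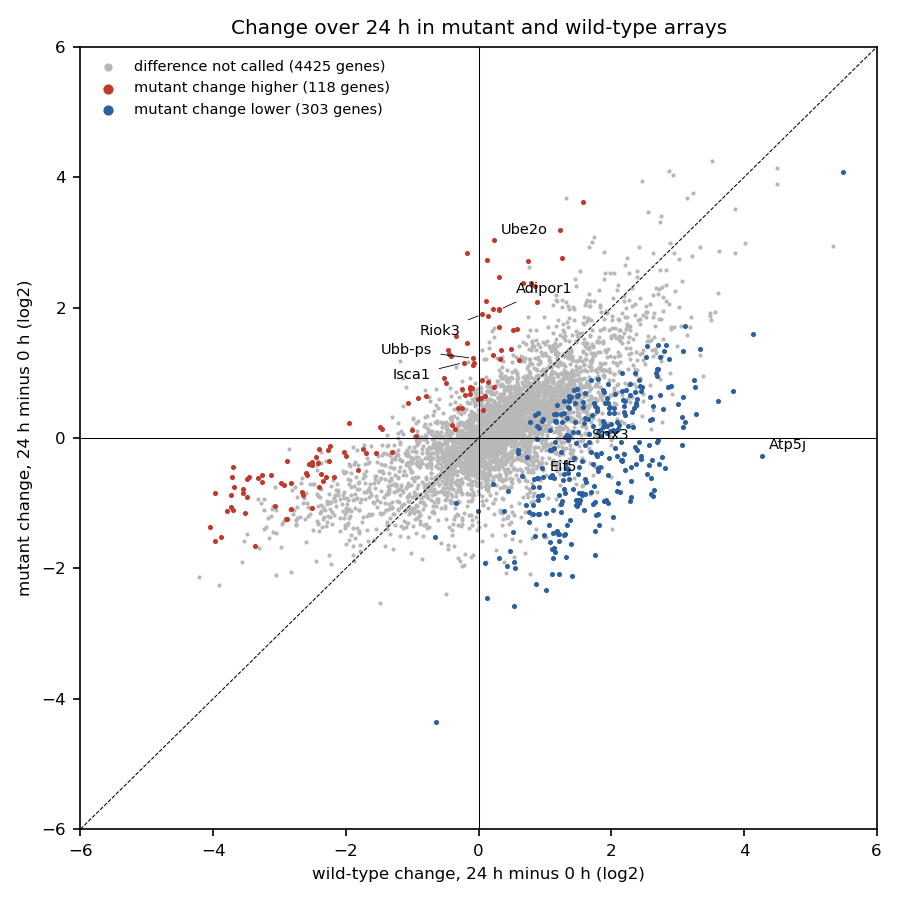
Change from 0 to 24 h in mutant (vertical axis, log2, 5 arrays per time) against that in wild type (horizontal axis, log2, 3 arrays per time), with 1 point for each of 4846 genes and a dashed line of equal change. Red and blue points mark the 118 and 303 genes whose mutant change was higher or lower than the wild-type change, and named points are the 8 genes with the smallest p.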

How the data were processed

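The deposited raw table gives for each probe of an array a signal intensity, a detection p-value in steps of 1 in 798, and a bead count and bead standard error that were not used. Its name says that the authors neither normalized it nor subtracted background. A second deposited table holds the authors' processed intensities on a linear scale. On each array these follow the raw intensities along a straight line (largest residual 0.0145), with medians of 93.3 to 108 over the 24 arrays. How they were made and centred was not given in the sources used here. A key to the columns says 15 h for the samples labelled 12 h, and the label was followed. Of 25697 probes, 23978 carry 1 gene name, 1719 none and 0 several, and 23962 were found in the RefSeq gene table. Arrays have no depth, and their number limits the precision.

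Background was corrected by normexp, using the negative-control level that the detection values imply. After adding an offset of 16, quantile normalization over all 24 arrays and a log2 transform followed. A probe was kept when its detection p was below 0.01 on 3 or more arrays, which left 6312 probes, 5918 of them named. Each of the 4846 genes was read from its brightest probe (845 had several). The 10 mutant arrays at 0 and 24 h were compared with limma 3.58.1 in R 4.3.3 (eBayes with trend), and p-values were adjusted by Benjamini-Hochberg over all genes at a threshold of 0.05. Differences are 24 h minus 0 h, with the SE. Where a gene was detected on no array of the dimmer group, a minimum fold is given, which holds on the quantile scale only. For this, each dim array took the larger of its lowest detected signal and the signal of that probe. The difference between genotypes was an interaction term over 16 arrays.

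The named genes are the 14 largest rises and 14 largest falls among called genes with separate groups and full detection in a group, up to 4 genes per list by p, 20 listed genes and 8 by p of the interaction. Not all are printed, and others are marked as chosen after their values were seen. The members and the 33 gene lists were chosen with earlier results of these data known. Residuals of same-numbered arrays correlated at 0.33, 0.16, 0.28, 0.15 and -0.09, so numbers were not taken as pairs. On simulated data of 4846 genes for this comparison, 66 of 100 changes of 1 log2 unit and 93 of 100 of 2 log2 units were called, with 13 false calls. The simulated noise was independent for each gene and array, with no shift shared across an array. These rates therefore need not hold for the real arrays, where 0 h arrays 1 and 2 stood apart. Promoter windows came from RefSeq. Python 3.11.15 and matplotlib 3.10.9 made the figures. The alternatives are named with their effect in the closing section.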

Additional observations from a re-analysis of the deposited data

Results flagged for a closer look

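In 15 of 220 groups of 5 arrays, 1 array lay far from the others, its gap to the nearest array divided by the range of the group being above 0.71. Chance flags about 1 in 20 groups. At 0 h, array 1 was the distant one for Mgst3 (0.727), Asns (0.724), Mzb1 (0.727), Fcmr (0.794) and Adipor1 (0.795). That array had the highest raw median intensity of the 0 h arrays, 278, and its part in these values was not tested. Also at 0 h, array 2 was distant for Itga2b (0.892), array 4 for Rps12 (1) and array 5 for Hba-a1 (1), where the other 4 arrays shared 1 normalized value. At 24 h, array 1 was distant for Mif (0.737), Oser1 (0.722) and Il7r (0.804). Array 4 was distant for Dnajb2 (0.762), Ube2o (0.717) and Eif2ak1 (0.734), and array 5 for Plek (0.885). Among these genes, the 0 h and 24 h values overlapped only for Hba-a1.

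The change from 0 to 24 h differed between mutant and wild type, by the interaction term, in the 8 genes with the smallest p. The mutant change was higher by 1.38 for Isca1, 1.31 for Ubb-ps, 1.85 for Riok3, 1.66 for Adipor1 and 2.80 for Ube2o (log2). The difference was -1.58 for Eif5, -4.55 for Atp5j and -1.72 for Snx3. Snx3 was detected on 0 of the 10 mutant arrays and Atp5j on 0 of the 3 wild-type arrays at 0 h, so these 2 differences rest in part on probes at background and do not measure a size. Of the 110 genes of the mutant comparison that could be named, 38 had a called difference.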

How the results depend on the processing

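The 0 h arrays had raw median intensities between 139 and 278, while 24 h arrays lay between 40.3 and 41.2, so time and background cannot be told apart, and the lowest detected level limits what weak probes show on 0 h arrays 1 and 2. The settings with these 2 arrays left out or alone were chosen after seeing the data. Changes are log2 differences and other values are counts of genes. Where a setting moved a value, the cause was not tested, apart from the change in genes tested or arrays used that a setting itself makes.

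With median centring 1361 genes changed (786 rose), with no filter 4702 of 16593 (2843 rose and 1859 fell), and with 0 h arrays 1 and 2 alone 2148 rose. Falls numbered 340 with the authors' values, 1449 with array weights and 1536 without 0 h arrays 1 and 2. Leaving out 1 array gave 1744 to 2308 changed genes, 1204 to 1412 rises and 526 to 964 falls. No background correction gave 1315 rises and 694 falls, a filter on the 10 arrays 1095 and 496 of 3419 genes, all 24 arrays in the fit 1431 and 731, and the mean of probes 1393 and 658. The replicate block gave 1375 and 815, and of the 110 named genes it changed 1 call, Tfrc, which then passed. At 24 h arrays 1 to 4 correlated best with their own number and array 5 with number 4. Pairing by number left the detected share at p = 0.125 by exact sign changes.

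Ribosomal protein falls numbered 2 with median centring and 0 with the authors' values. Heme rises numbered 14 and platelet rises 16 with the authors' values, and interferon rises 8 with median centring. B cell falls numbered 0 with median centring, 0 with the authors' values, 5 with no filter, 15 with array weights, 15 without 0 h arrays 1 and 2, 3 with these alone, and 5 to 15 with 1 array left out. The detected share differed by 9.49 points with 0 h arrays 1 and 2 alone (exact p = 0.0476), by 5.34 at a detection p below 0.05 (exact p = 0.159) and by 3.00 to 6.36 with 1 array left out.

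Of the 110 named genes, 94 kept direction and call with median centring and 88 with the authors' values, while 3 and 9 changed sign. The sign turned for Hba-a1 (0.58 and 1.83), Alas2 (0.86 and 2.10) and Eif5 (0.30 and 1.54) with median centring and with the authors' values, and for Ube2l6 (1.20), Rplp1 (0.97), Rps12 (0.91), Rps20 (0.89), Rpl12 (0.70) and B2m (0.78) with the latter. With 0 h arrays 1 and 2 alone Tfrc was at -0.23 and Alas2 at 0.085, and with 1 array left out Alas2 ranged from -0.039 to 0.0095.

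Genes whose change differed between genotypes numbered 76 with median centring (23 above 0 and 53 below), 185 with the authors' values (49 and 136), 797 with all 24 arrays (227 and 570), 1507 with array weights (373 and 1134) and 1642 without mutant 0 h arrays 1 and 2 (283 and 1359). With 1 array left out they numbered 254 to 922, 74 to 229 above 0 and 180 to 726 below.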
